A study of Mus musculus with 46 samples.

Results

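The compounds described here are uremic solutes and products made jointly by gut microbes and the host. They were chosen by name, as every compound whose annotation from its fragment spectrum contained cresol, hippur, trimethylamine, phenyl sulf, phenylacetyl, creatinine or allantoin. This gave 11 of the 2801 compound names in 6 metabolite tables, with 35 values per comparison because no compound was listed in all 6 tables. Untargeted metabolomics was done on kidney, liver and serum of wild-type C57BL6 mice in 3 arms, namely males castrated at 8 weeks of age, sham-operated males and sham-operated females. Animals were killed at 12 weeks or 18 months of age, so castrated males had lived without testes for a short or a long period. RNA of kidney and liver came from the same arms, with 3 libraries in each sham group and, for castrated males, 6 in each tissue at 12 weeks and 5 at 18 months. The submitters state that the work addressed how castration bears on ageing in health and on differences between the sexes.

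Trimethylamine N-oxide, or TMAO, arises when gut bacteria release trimethylamine from choline, carnitine or betaine and flavin monooxygenases of the liver oxidize it. Bacteria also turn tyrosine into p-cresol, which host enzymes join to sulfate or glucuronic acid, and phenylalanine or plant phenols into acids that mitochondria join to glycine as hippurates and phenylacetylglycine. Creatinine forms from creatine without an enzyme, and allantoin is the end product of purine breakdown in mice, made from uric acid by urate oxidase. The kidney clears these compounds, many of them by secretion in the proximal tubule, and several accumulate in blood when renal function fails.

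Each value is the authors' mean of a group, in relative abundance. No spread or number of animals comes with it, so no difference between compound means could be tested and no error can be given. The scale differs between tables, and compounds respond differently in a mass spectrometer, so values were set side by side only for the same compound in the same table. A ratio of at least 2 between group means, in either direction, was used as a descriptive limit. Shares of all compounds of the same table past that limit stand beside each count. Levels of isomers need care: 2- and 4-methylhippuric acid and phenylacetylglycine share an elemental composition, and how well each name separates them was not tested.

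After castration, 5 of the 35 values were at least 2-fold higher than in sham males and 3 at least 2-fold lower. In females, 9 were higher and 3 lower by the same limit. In 12-week kidney, 2 of 5 members were higher and 0 lower after castration, against 4.43% and 5.12% of all 723 compounds. In females there, 1 was higher and 0 lower, against 7.19% and 6.22%. In 12-week liver 1 of 2 was higher and 0 lower in each comparison, against 3.53% and 6.51% of 737 compounds for castration and 4.21% and 7.87% for females. The 12-week serum table of 1495 compounds held 10 members, of which 1 was higher and 0 lower after castration, against 8.76% and 4.01%. In females 2 were higher and 0 lower, against 11.2% and 7.22%. In 18-month kidney 0 of 8 members were higher and 2 lower after castration, against 7.11% and 5.69% of 985 compounds. In females there, 1 was higher and 2 were lower, against 5.58% and 13.5%. In 18-month liver 1 of 4 was higher and 0 lower after castration, against 7.13% and 3.35% of 954 compounds, and 2 were higher and 0 lower in females, against 6.81% and 6.71%. In 18-month serum 0 of 6 were higher and 1 lower after castration, against 9.68% and 5.65% of 868 compounds. In females 2 were higher and 1 lower, against 8.18% and 13.2%. Counts this small describe single compounds and not the set.

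**Figure D1:**
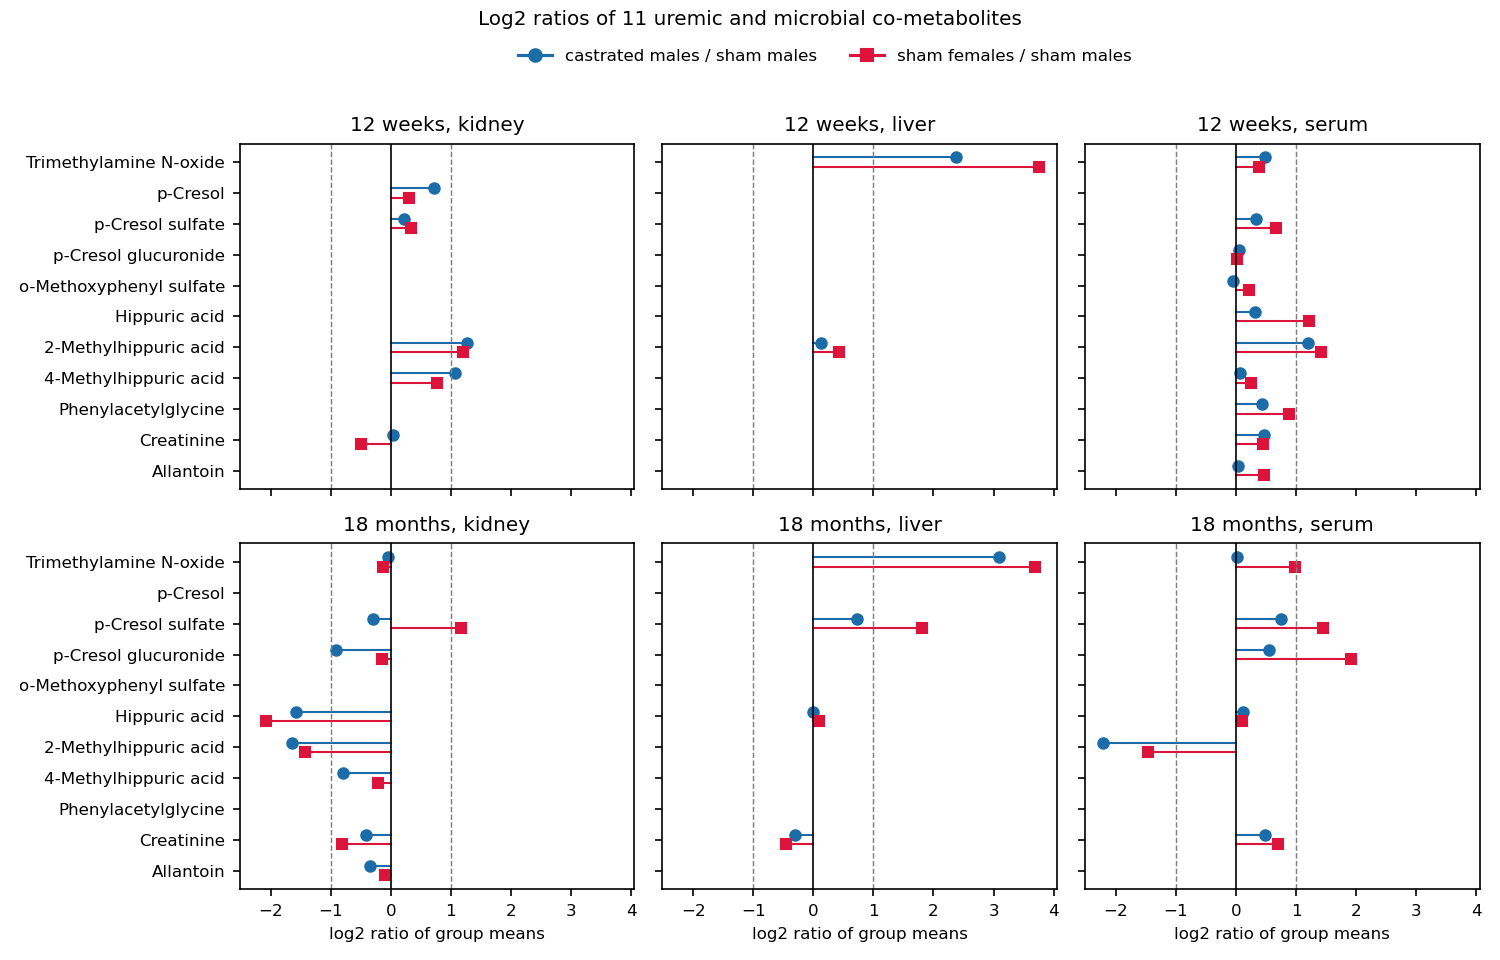
Log2 ratio of group means over sham males for each of the 11 compounds, 1 panel per age and tissue, with circles for castrated males, squares for sham females and dashed lines at a ratio of 2. Trimethylamine N-oxide in liver reached 2.37 and 3.76 at 12 weeks and 3.10 and 3.70 at 18 months, while 2-methylhippuric acid lay above 0 in every 12-week table and below 0 in both 18-month tables.

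**Figure D2:**
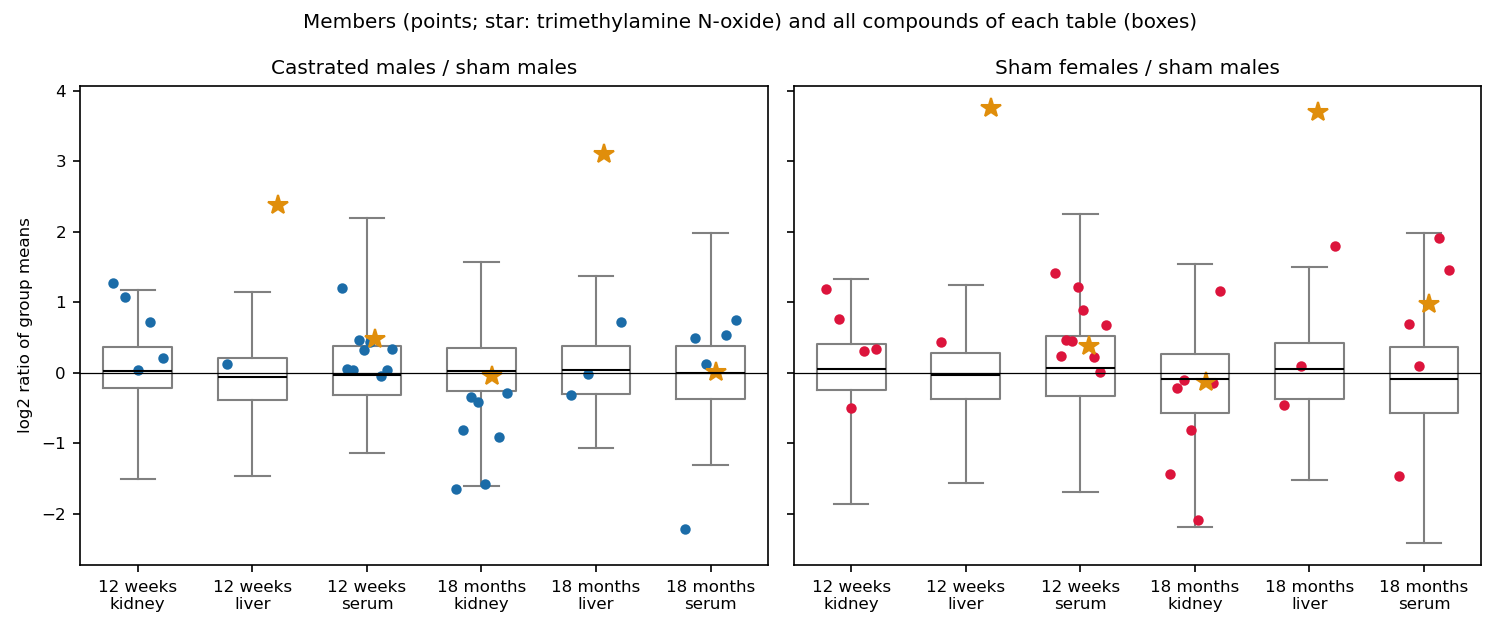
Log2 ratios over sham males of the members (points, star for trimethylamine N-oxide) and of all compounds in each table (box, median and quartiles; whiskers, percentiles 2.5 to 97.5). All 4 liver stars stood beyond the upper whiskers, which ended at 1.14 and 1.25 at 12 weeks and 1.37 and 1.51 at 18 months for castrated males and females, and 2-methylhippuric acid in 18-month serum stood at -2.22 after castration, below a whisker end of -1.34.

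TMAO had the largest ratios of the 35 values, and they occurred in liver. In 12-week liver its mean was 0.0349 in sham males, 0.181 after castration and 0.473 in females, which is 5.19-fold and 13.5-fold the sham male mean. Among the 737 compounds it held rank 3 from the top for castration and rank 2 for females. In 18-month liver the means were 0.0402, 0.344 and 0.522, or 8.56-fold and 12.97-fold the sham male mean, with rank 3 of 954 in both comparisons. Castrated males thus stood between sham males and females at both ages, 2.61-fold below females at 12 weeks and 1.52-fold below them at 18 months.

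Ratios in serum and kidney stayed below the limit. In 12-week serum TMAO was 8.87e-05 in sham males, 0.000124 after castration and 0.000116 in females, ratios of 1.40 and 1.30. In 18-month serum it was 1.89, 1.91 and 3.73, so that castrated males stood at 1.01 times the sham male mean and females at 1.97 times, just inside the 2-fold limit. In 18-month kidney the 3 means were 0.304, 0.294 and 0.279. TMAO was not listed for 12-week kidney.

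**Figure D3:**
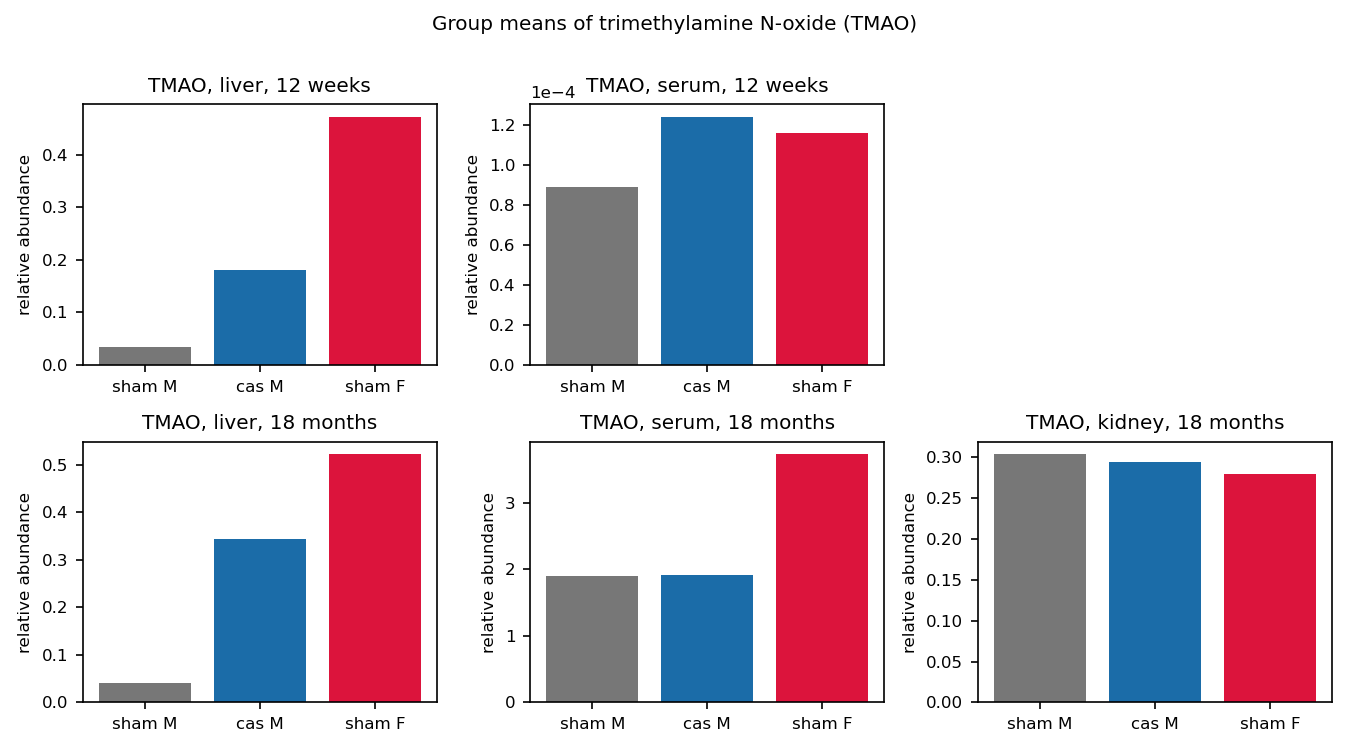
Group means of trimethylamine N-oxide (relative abundance, 1 scale per panel, bars from 0) in liver and serum at both ages and in 18-month kidney, in sham males, castrated males and sham females. In liver the mean was lowest in sham males and highest in females at both ages, at 0.0349 and 0.473 at 12 weeks and 0.0402 and 0.522 at 18 months, while serum and kidney means lay closer together.

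Dietary precursors of trimethylamine were read in the same tables, from a short list of compounds chosen after the values had been seen. Liver choline was 4.43, 4.55 and 3.79 at 12 weeks in sham males, castrated males and females, and 8.80, 10.3 and 9.80 at 18 months. Liver betaine was 0.629, 0.618 and 0.620 at 12 weeks and 1.02, 0.905 and 0.758 at 18 months. Liver L-carnitine was 0.00822, 0.00924 and 0.0107 at 12 weeks and 15.6, 13.8 and 15.1 at 18 months. Each of these liver precursors stayed within 1.5-fold of the sham male mean in both other arms. Serum choline was 0.00139, 0.00205 and 0.00199 at 12 weeks and 13.1, 15.5 and 21.4 at 18 months, when females had 1.63 times the sham male mean. Serum betaine was 9.44e-05, 9.24e-05 and 9.69e-05 at 12 weeks and 4.22, 3.94 and 6.11 at 18 months. The part of these precursors in the TMAO levels was not tested.

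Flavin monooxygenases add oxygen to nitrogen and sulfur atoms of small molecules, and RNA of 4 genes of the family was read. RNA levels are in FPKM at 12 weeks, which counts fragments relative to the length of the transcript and the size of the library, and in expression units of unnamed scale at 18 months. At 12 weeks the deposited tables list every gene for a single comparison. Of the 4 genes, 3 rose after castration in 18-month liver, against 1.08% of all genes tested, and 2 were higher in females, against 5.87%. The list median of log2(mean + 1) differences for castration was 1.01, against 0.12 over all liver genes above a mean of 1. The same median over all genes at 18 months was 0.14 for females in liver, and 0.13 and 0.11 for castrated males and females in kidney. Fmo2, a lung and kidney form, rose in that liver from 3.62 to 23.8 after castration, and females had 21.7. The authors' deposited table gives log2 folds of 2.56 and 2.41 for Fmo2, with implied standard errors of 0.19 and 0.40 and adjusted p of 8.84e-39 and 2.42e-07 by their DESeq2 test. Fmo1, which handles many tertiary amines, rose from 80.6 to 164 with 177 in females, and Fmo4 from 4.29 to 9.67 with 7.73 in females, where it did not pass the test (adjusted p = 0.18 in the authors' deposited table). In 12-week liver 3 of the 4 were listed for castration and all 3 rose, against 12.1% of the listed genes. Among them Fmo2 went from 5.45 to 85.6 FPKM and Fmo1 from 143 to 401. In 18-month kidney 1 gene fell and 0 rose after castration, against 13.1% of all genes, and 3 were lower in females, against 8.9%. In 12-week kidney Fmo4, the 1 gene listed for castration, rose from 14.9 to 21.0 FPKM, against 22.6% of listed genes. Fmo2, the 1 listed for sex, was lower in females at 54.4 against 89.0 FPKM, against 39.7% of listed genes. The 2 genes listed for castrated males against females were both higher in castrated males, against 3.19% of listed genes, and 0 were lower, against 1.95%. The gene that fell at 18 months was Fmo5, from 58.3 in sham males to 9.24, with 4.34 in females.

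p-Cresol sulfate, the main conjugate of bacterial p-cresol, was listed in 5 tables and was higher in females than in sham males in all 5. In 18-month liver its mean was 0.0324 in sham males, 0.0536 after castration and 0.113 in females, ratios of 1.65 and 3.49. The female ratio held rank 13 of 954 compounds. In 18-month serum the means were 1.36, 2.29 and 3.75, ratios of 1.68 and 2.75. In 18-month kidney they were 0.178, 0.146 and 0.399, so that females stood at 2.24 times the sham male mean and castrated males 1.22-fold below it. At 12 weeks the differences were smaller. Kidney means were 0.594, 0.690 and 0.754, and serum means were 0.000151, 0.000191 and 0.000240. Castrated males therefore lay between the sham arms in 4 of the 5 tables, with 18-month kidney as the exception.

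The glucuronide of p-cresol, the alternative conjugate, was listed in 3 tables and did not always stand in the order of the sulfate. In 18-month serum it stood at 0.0171 in sham males, 0.0249 after castration and 0.0644 in females, ratios of 1.46 and 3.76. In 18-month kidney its means were 0.0301, 0.0160 and 0.0273, so that castrated males were 1.88-fold below sham males while females were near them. The sulfate in those kidneys was highest in females, and the log2 ratio of the glucuronide minus that of the sulfate was -1.30 for females. In 12-week serum the glucuronide means were 7.21e-06, 7.43e-06 and 7.27e-06, with no ratio above 1.03. Free p-cresol, listed for 12-week kidney alone, was 0.0265, 0.0438 and 0.0328. o-Methoxyphenyl sulfate, the sulfate of guaiacol, was 4.63e-06, 4.50e-06 and 5.40e-06 in 12-week serum.

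Indoxyl sulfate, another sulfated bacterial product read for context, was 0.000111, 0.000216 and 0.000341 in 12-week serum. In 18-month serum its means of 9.12, 10.3 and 11.8 were closer together. Kidney means were 0.995, 1.47 and 1.74 at 12 weeks, and 2.05, 1.30 and 1.47 at 18 months, when sham males had the highest value. In 18-month liver it was 0.385, 0.439 and 0.512. Tyrosine, from which bacteria make p-cresol, was 0.302, 0.279 and 0.228 in 18-month serum and 2.69, 2.25 and 2.95 in 18-month liver. Kidney tyrosine was 3.18, 3.01 and 4.31 at 12 weeks and 3.36, 2.74 and 1.26 at 18 months. At 12 weeks it was 0.000114, 6.82e-05 and 8.43e-05 in serum and 0.544, 0.571 and 0.568 in liver. The part of tyrosine in the p-cresol sulfate levels was not tested.

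Among genes that conjugate phenols, Sult1a1 (mm10 chromosome 7, 126672865 to 126676432, minus strand), the principal phenol sulfotransferase, rose in the 12-week liver after castration, from 257 to 569 FPKM (adjusted p = 0.000856 in the authors' deposited table). Its mean in females, 601, has no listed test against sham males. In 18-month liver it stood at 276 in sham males, 556 after castration and 553 in females. The authors' deposited table gives log2 folds of 0.84 and 0.80, with implied standard errors of 0.21 and 0.24 and adjusted p of 0.00323 and 0.0174 by their DESeq2 test. Sult1c2, another sulfotransferase, rose in 18-month liver from 3.86 to 9.94, and Sult1d1, which also sulfates phenols, from 51.8 to 88.4 with 123 in females. At that age Sult1a1 and Sult1d1 lie outside the naming rule and were added after their values were seen. Papss2, which makes the sulfate donor, was higher in 18-month female liver at 156 against 64.0, while its castrated male mean of 85.7 did not pass the test (adjusted p = 0.899).

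Of all 14 conjugation genes in 18-month liver, 3 rose and 1 fell after castration, against 1.08% and 1.01% of all genes. Females had 4 higher and 2 lower, against 5.87% and 3.91%. The gene that fell was Ugt2b1, a glucuronosyltransferase, from 237 to 111, with 75.9 in females. Ugt1a9, another glucuronosyltransferase, was among the genes higher in females, at 41.7 against 15.2. Its mean after castration, 66.1, did not pass the test (adjusted p = 0.199 in the authors' deposited table). In 18-month kidney 5 rose and 4 fell after castration, against 9.56% and 13.1%, and 6 were higher and 4 lower in females, against 7.91% and 8.9%. Kidney Sult1a1 rose from 14.7 to 35.1, and Ugt1a1, the bilirubin glucuronosyltransferase, from 0.71 to 13.2. Ugt1a7c fell from 393 to 296 with 143 in females. Ugt1a6b was lower in females, at 3.57 against 10.6, with 12.8 after castration. Because Ugt1a transcripts have common exons, their separate values are uncertain. At 12 weeks 8 of the 14 genes were listed for castration in kidney, of which 0 rose and 4 fell, against 22.6% and 26% of listed genes. Ugt1a9 fell there from 142 to 1.35 FPKM with 0.383 in females, and Papss1, which also makes the sulfate donor, from 38.0 to 19.5. In 18-month kidney Ugt1a9 went the other way, at 0.0667 in sham males, 0.974 after castration and 0.67 in females. Its log2 folds there were 4.16 and 3.64 in the authors' deposited table. In 12-week liver 13 were listed, of which 4 rose and 3 fell, against 12.1% and 12.8% of listed genes. Ugt2b1 fell there from 249 to 70.7 FPKM, and Sult1c2 rose from 3.26 to 10.1 and Papss2 from 42.0 to 96.2.

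Hippurates were higher than in sham males at 12 weeks, by ratios from 1.04 upward, and lower in kidney at 18 months. Most other members shared these directions. After castration 5 of 5 members in 12-week kidney, 2 of 2 in liver and 9 of 10 in serum stood above sham males. The shares of all compounds above were 54.9%, 43.3% and 46.4%. Females had 4 of 5, 2 of 2 and 10 of 10 members above. Below sham males in 18-month kidney stood 8 of 8 members after castration and 7 of 8 in females. Of all compounds there, 54.1% and 43.9% stood above. 2-Methylhippuric acid in 12-week kidney was 0.192 in sham males, 0.463 after castration and 0.439 in females, ratios of 2.41 and 2.29. In 12-week serum it was 2.00e-07, 4.60e-07 and 5.36e-07, ratios of 2.30 and 2.68. Its 18-month means were lower than in sham males. Kidney held 0.186, 0.0593 and 0.0689, so that castrated males were 3.13-fold and females 2.69-fold below sham males. Serum held 0.128, 0.0274 and 0.0463, or 4.65-fold and 2.76-fold below. The serum value after castration held rank 6 from the bottom among 868 compounds. In 12-week liver the means of 0.0108, 0.0119 and 0.0147 differed by less than the limit.

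The 4-methyl isomer differs only in the position of the methyl group on the ring. In 12-week kidney its means of 1.11, 2.35 and 1.90 followed those of the 2-methyl isomer, and the log2 ratios of the isomers differed by 0.19 for castration and 0.43 for females. In 12-week serum they parted. The 4-methyl isomer was 4.29e-06, 4.48e-06 and 5.08e-06, with ratios of 1.04 and 1.18, and the isomers' log2 ratios differed by 1.14 and 1.18. In 18-month kidney its means were 0.0467, 0.0268 and 0.0402, which is 1.75-fold below sham males after castration and 1.16-fold below in females.

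Hippuric acid, the glycine conjugate of benzoic acid, stood below sham males by more than the limit in 1 of its 4 tables, 18-month kidney. In that kidney it was 0.0465 in sham males, 0.0156 after castration and 0.0110 in females, 2.98-fold and 4.23-fold below sham males. In 18-month liver the means were 0.0202, 0.0200 and 0.0216, and in 18-month serum 0.0435, 0.0475 and 0.0467, with no ratio above 1.09. The lower kidney means were thus not accompanied by lower liver or serum means at that age. In 12-week serum it was 8.58e-06, 1.07e-05 and 1.99e-05, with females at 2.32 times the sham male mean. Benzoic acid in that serum was 4.91e-06, 5.35e-06 and 1.25e-05, also highest in females, and in 18-month kidney it was 0.161, 0.168 and 0.161. Phenylacetylglycine, a conjugate typical of mice, was listed for 12-week serum alone, at 4.10e-06, 5.55e-06 and 7.58e-06, ratios of 1.35 and 1.85.

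Within families, 19 pairs of compounds shared a table, and their log2 ratios are set side by side above or in the plot of ratios without a test. The widest gap among them was between 2-methylhippuric and hippuric acid in 18-month serum after castration, at -2.34. In 18-month kidney the same pair differed by -0.07.

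Most kidney genes for joining acids to glycine fell after castration. Of 7 measured genes of 8 listed, 5 fell and 0 rose in 18-month kidney, against 13.1% and 9.56% of all genes, and in females 4 were lower and 1 higher, against 8.9% and 7.91%. The list median for castration was -0.66, against 0.13 over all genes. Glyat (mm10 chromosome 19, 12633308 to 12653911, plus strand), the mitochondrial glycine acyltransferase, fell from 522 to 402, and females had 293. The authors' deposited table gives log2 folds of -0.52 and -0.96, with implied standard errors of 0.082 and 0.091 and adjusted p of 6.74e-09 and 6.57e-24 by their DESeq2 test. Acsm2, a medium-chain acyl-CoA synthetase that activates benzoate, fell from 836 to 246 with 180 in females, and Acsm3 from 183 to 13.6 with 1.59 in females. Acsm1 was the gene higher in females, at 210 against 80.6.

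At 12 weeks 5 of the 7 genes were listed for castration in kidney and 4 of them fell, against 26% of listed genes. Keg1, a glycine acyltransferase relative abundant in kidney, fell from 1233 to 440 FPKM and Acsm2 from 3800 to 372. Glyat, listed for sex in that tissue, was lower in females at 108 against 325, with 166 after castration. Of kidney genes listed for sex at that age, 39.7% were lower and 41.8% higher in females. The hippurates of 12-week kidney had their lowest means in sham males, where Keg1, Acsm2 and Glyat RNA had their highest. Acsm1 RNA there was 103 in sham males, 77.1 after castration and 121 in females. The part of these RNAs in the hippurate levels was not tested. In 12-week liver 2 of the 3 genes listed for castration fell, against 12.8% of listed genes, namely Glyat from 178 to 87.5 and Keg1 from 216 to 97.8. In 18-month liver 0 of 7 passed the authors' DESeq2 test for castration and 1 had an unadjusted p under 0.05. Liver Glyat there was 195, 182 and 145, and it was lower in females (adjusted p = 0.00663).

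Creatinine was higher in serum and lower in tissues in castrated males and females at 18 months. Serum means were 0.0711 in sham males, 0.10 after castration and 0.115 in females, ratios of 1.41 and 1.62. Kidney means were 0.358, 0.268 and 0.204, which is 1.34-fold and 1.75-fold below sham males, and liver means were 0.125, 0.101 and 0.0908. In 12-week serum the values were 4.11e-06, 5.68e-06 and 5.65e-06, ratios of 1.38 and 1.37. In 12-week kidney they were 2.0, 2.06 and 1.41, lowest in females. None of the 10 creatinine ratios reached 2-fold.

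Creatine, its source, hardly varied in kidney, at 34.8, 34.0 and 34.6 at 12 weeks and 2.33, 2.35 and 2.36 at 18 months. In 18-month liver it was 1.87, 1.5 and 0.725. Gatm (mm10 chromosome 2, 122594467 to 122611303, minus strand), which catalyses the first step of creatine synthesis, fell in 12-week kidney from 187 to 101 FPKM with 80.3 in females. In 18-month kidney its means were 303, 391 and 336, and castration did not pass the test (log2 fold 0.22, adjusted p = 0.536 in the authors' deposited table). Of 7 measured genes of creatine formation and use, 2 rose and 2 fell after castration in 18-month kidney, against 9.56% and 13.1% of all genes. Ckb, brain-type creatine kinase, rose from 62.2 to 124 with 129 in females. Gamt, which completes creatine synthesis, was higher in 12-week female liver, at 507 FPKM against 244, with 412 after castration. In that tissue 2 genes of the list had a sex comparison, and 2 were higher in females. All 628 genes listed for that comparison passed the authors' test, 47.1% higher and 52.9% lower. Being listed there thus already meant passing, and only the direction could vary. In 18-month liver 0 of 6 tested passed the authors' DESeq2 test for castration and 2 had an unadjusted p under 0.05. In female liver at that age 2 of 6 were higher and 0 lower, against 5.87% and 3.91% of all genes, namely Gatm at 5.66 against 1.87 and Ckb at 8.86 against 2.33. Gatm also rose in 12-week liver after castration, from 4.17 to 8.66 FPKM with 7.56 in females.

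Allantoin was listed in 2 tables. In 12-week serum it was 2.34e-05 in sham males, 2.40e-05 after castration and 3.23e-05 in females, and in 18-month kidney 0.337, 0.266 and 0.315. Uox (mm10 chromosome 3, 146570426 to 146632305, plus strand), the urate oxidase of hepatocytes, had 12-week liver means of 854, 951 and 709 FPKM. Its 18-month liver means were 1352, 958 and 1069, and neither castration (adjusted p = 0.528) nor sex (adjusted p = 0.161) passed the authors' DESeq2 test. In 18-month liver 0 of 7 purine breakdown genes passed that test in either comparison, with 2 at an unadjusted p under 0.05 in each. Uric acid, the substrate of Uox, was 0.0162, 0.0170 and 0.0149 in that liver, and 0.0828, 0.124 and 0.134 in 18-month serum. In 18-month kidney it was 0.00193, 0.00416 and 0.00207, so that castrated males stood at 2.16 times the sham male mean. In 12-week liver it was 0.0246, 0.0402 and 0.0279. In 18-month kidney 2 of the 7 genes rose and 1 fell after castration, against 9.56% and 13.1% of all genes. Xdh, the oxidase that makes uric acid, rose from 13.4 to 22.9, and Urah, which acts after urate oxidase, fell from 9.16 to 5.14.

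Most renal carriers of organic ions fell after castration. Of 14 genes, 10 fell and 2 rose in 18-month kidney, against 13.1% and 9.56% of all genes, and 8 were lower and 2 higher in females, against 8.9% and 7.91%. The list median for castration was -0.49. Slc22a6 (mm10 chromosome 19, 8618039 to 8628299, plus strand), the basolateral anion carrier OAT1 that takes up hippurate and p-cresol sulfate, fell from 324 to 156 and females had 123. The authors' deposited table gives it log2 folds of -1.21 and -1.53, with implied standard errors of 0.094 and 0.12 and adjusted p of 2.43e-35 and 3.21e-36 by their DESeq2 test. Its neighbour Slc22a8, the related carrier OAT3, rose from 251 to 398 after castration (adjusted p = 3.95e-06 in the authors' deposited table) and was 268 in females (adjusted p = 0.937).

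Slc22a2, the cation carrier OCT2 that takes up creatinine, was 196 in sham males, 97.5 after castration and 109 in females at 18 months. It lies outside the naming rule at that age and was added after its values were seen (adjusted p = 1.61e-30 for castration in the authors' deposited table). Slc17a3, an apical anion carrier, fell from 188 to 62.5 with 109 in females. Abcc4, an apical exporter of conjugates, rose from 18.9 to 43.5 with 33.3 in females. Slc22a7 was higher in females, at 180 against 30.8, with 29.1 in castrated males. At 12 weeks 6 genes were listed for castration in kidney, of which 5 fell and 1 rose, against 26% and 22.6% of listed genes. Slc22a6 fell from 207 to 69.0 FPKM with 45.7 in females, and Slc22a8 rose from 231 to 387 with 276 in females. Slc22a7 fell after castration from 78.9 to 3.45 FPKM at that age, and females had 96.0.

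Of 12 carriers tested in 18-month liver, 1 rose and 2 fell after castration, against 1.08% and 1.01% of all genes. Abcg2, an exporter of sulfated conjugates, fell from 49.8 to 25.2 with 19.7 in females, and Slc22a7 from 16.1 to 4.16 with 7.0 in females. In 12-week liver 8 carriers were listed for castration, of which 2 rose and 2 fell, against 12.1% and 12.8% of listed genes. Abcg2 fell there from 51.0 to 21.9 FPKM and Abcc2 rose from 165 to 273. The 2 carriers listed for sex, Slc47a1 and Slc17a3, were higher in females, in a comparison where every listed gene passed. Of the 4 carriers listed there for castrated males against females, 1 was lower in castrated males and 0 were higher, against 2.94% and 1.77% of listed genes. It was Slc22a7, at 1.64 against 4.06 FPKM, named after its values were seen.

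**Figure D4:**
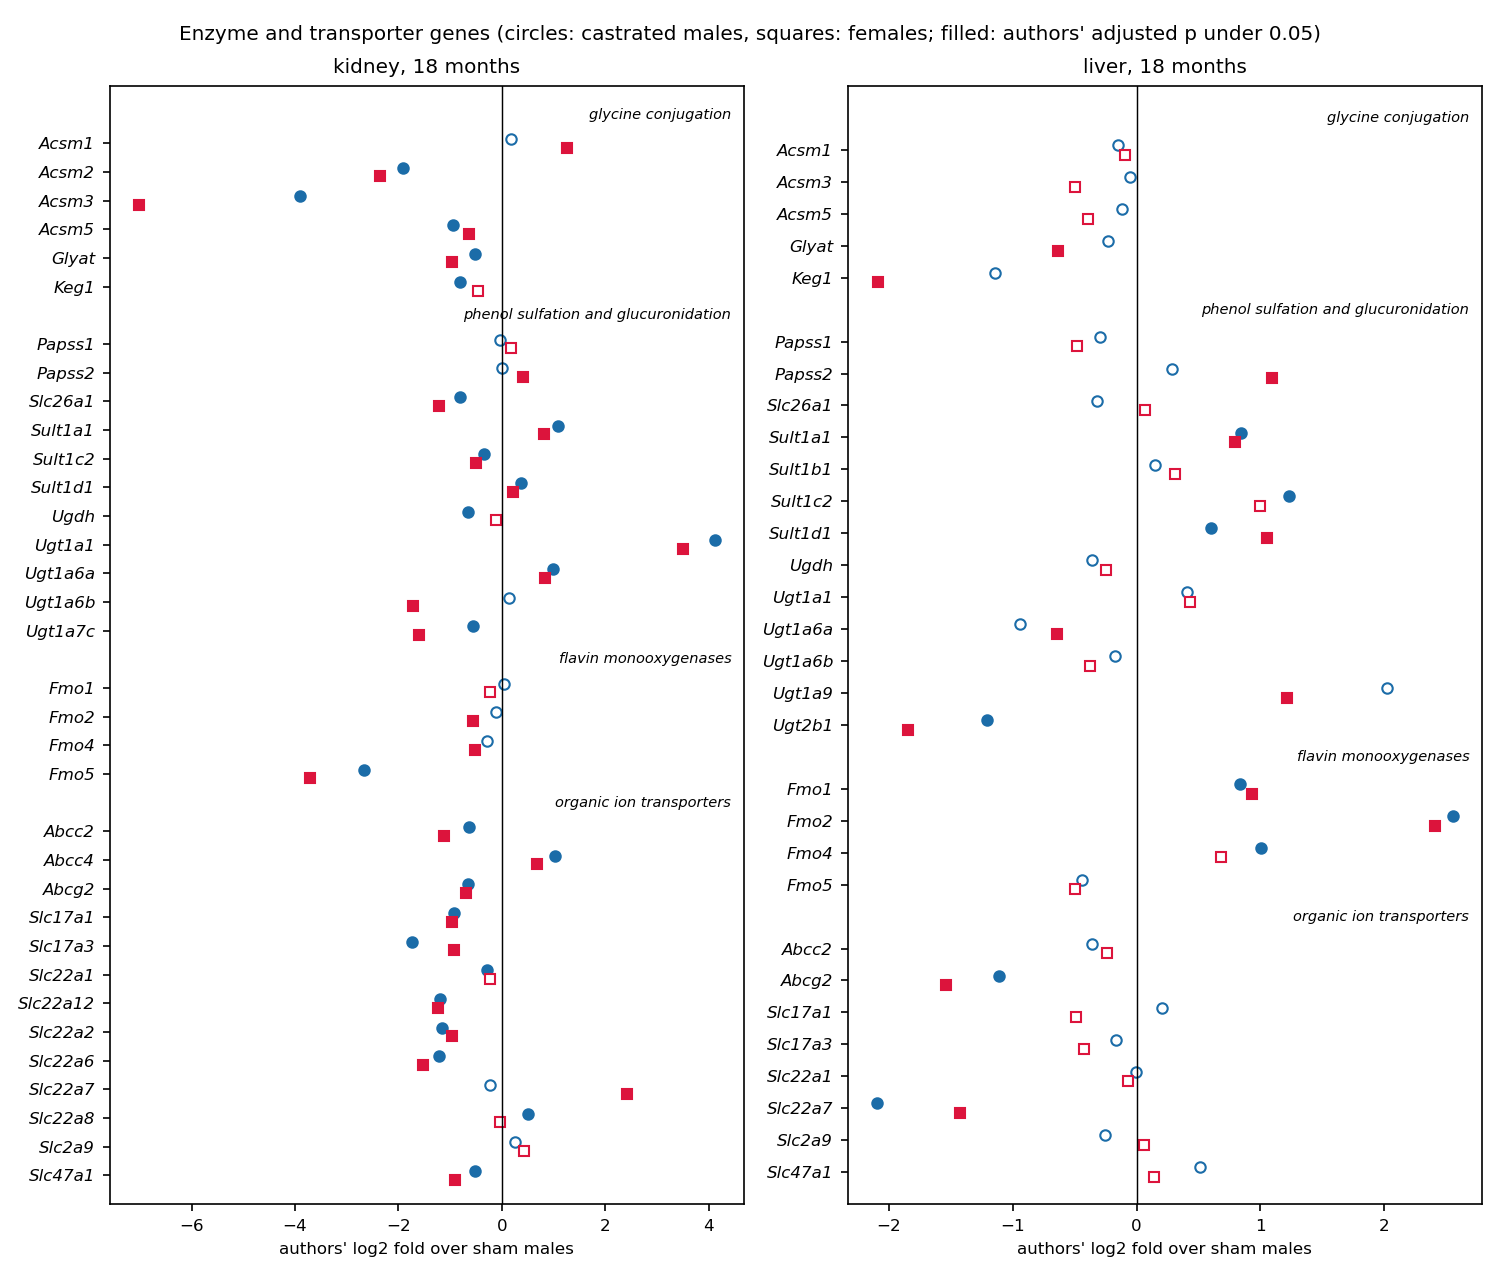
Authors' log2 folds over sham males at 18 months for listed genes with a group mean of at least 5, with kidney on the left and liver on the right (separate axes), circles for castrated males, squares for females and filled symbols for an adjusted p under 0.05. Most kidney glycine conjugation and carrier genes lie left of 0, and Fmo2 stands at 2.56 and 2.41 in liver.

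Castrated males and females were also set against each other. By the 2-fold limit 4 of the 35 values were lower in castrated males and 0 higher. The shares of all compounds higher in castrated males were 3.73% in kidney, 2.99% in liver and 5.75% in serum at 12 weeks, and 9.44%, 6.6% and 10.8% at 18 months. No member of 12-week kidney or serum was lower by the limit, where 1.52% and 4.35% of all compounds were. TMAO in 12-week liver was 2.61-fold lower, against 2.44% of all compounds past that limit. p-Cresol sulfate was 2.74-fold lower in 18-month kidney, against 2.44%, and 2.11-fold lower in 18-month liver, against 3.46%. p-Cresol glucuronide was 2.58-fold lower in 18-month serum, against 3.23%. TMAO in 18-month serum, 1.95-fold lower, lay just inside the limit.

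The labelled tissues matched their RNA. The 5 hepatocyte markers summed to between 17475 and 24261 in liver and to at most 138 in kidney, where Ttr made up most of the sum. The 5 proximal tubule markers summed to between 1739 and 3526 in kidney and to at most 41.0 in liver. Of these 5, 3 fell after castration in 18-month kidney, against 13.1% of all genes, and 1 was lower in females, against 8.9%. The sums there were 3526, 2977 and 2476, mostly Slc34a1, a phosphate carrier, at 2692, 2196 and 1536. In females Aqp1, Cubn and Lrp2 had higher means than in sham males, at 436 against 354, 66.1 against 49.8 and 219 against 171, none past the test, and the list median was 0.30. The part of these markers in the lower carrier RNAs was not tested. Blood markers summed to 3460 in sham males, 5246 after castration and 2726 in females in 18-month kidney, and to 985.5, 1476 and 893 in 18-month liver. Of these 5 markers, 3 rose after castration in that kidney, against 9.56% of all genes, and 1 was lower in females, against 8.9%. In that liver 0 rose and 1 fell after castration, against 1.08% and 1.01%. In females there, 0 were higher and 1 lower, against 5.87% and 3.91%. The lower marker was Alas2 in each case, at 70.1 in sham males, 20.8 after castration and 7.78 in females. The part of blood markers in the tissue levels of the compounds was not tested. Kidney injury markers summed to 712, 1775 and 1533 in 18-month kidney, a sum made up mostly of Spp1. Of these 5, 1 rose after castration, against 9.56% of all genes, and in females 1 was higher and 1 lower, against 7.91% and 8.9%. The gene lower in females was Havcr1, a marker of tubular injury, at 5.23 in sham males, 1.25 after castration and 0.933 in females. In 12-week kidney 3 of the 3 injury markers listed for castration rose, against 22.6% of listed genes. They were Lcn2, from 0.676 to 1.77 FPKM, Spp1, from 402 to 650, and Vcam1, from 3.35 to 7.55. Havcr1, the 1 listed for sex there, was lower in females, at 0.418 against 1.04 FPKM, against 39.7% of listed genes. The part of injury markers in the creatinine means was not tested.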

How the data were processed

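Per the series text, metabolites were measured by untargeted metabolomics; the instrument, scaling and number of animals are unknown here. The authors deposited 1 mean signal (relative abundance) per arm and compound. Per the submitters' processing notes, RNA processing used HISAT2, SAMtools and Cufflinks with mm10. The authors deposited 1 mean FPKM per group at 12 weeks and 1 mean expression signal of unnamed unit at 18 months, both with 0.01 as the lowest value. The deposited comparison tables hold p-values and adjusted p-values, and at 18 months log2 folds from DESeq2, per the file headers. Those folds were recoded so that positive means higher than the reference arm, since the group means of called genes had the opposite sign otherwise. With the recoding all 1631 genes compared for castration in 18-month kidney had the sign of their means. Only called genes whose log2(mean + 1) difference exceeded a set minimum were compared, so smaller differences were not checked.

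With means only, depth is unknown, no test across samples was made, and the planned tests per sample were replaced by the authors' tests. Log2 ratios of compound means took no added constant. Gene differences are of log2(mean + 1), and a gene was called at an authors' adjusted p under 0.05. Implied standard errors were back-calculated from each log2 fold and its p-value under a normal distribution. At 12 weeks each gene has 1 listed comparison, so counts there are lower bounds. Members and the 6 gene lists (55 genes, 53 measured) were chosen with earlier results of these data known. The naming rule takes at most 4 called genes per list, tissue and age with a larger mean of at least 5, by the ratio of means, plus Glyat, Uox, Gatm, Slc22a6 and Slc22a8 whatever their values. Precursor compounds and, at 18 months, liver Sult1a1 and Sult1d1 and kidney Slc22a2 were added after their values were seen, and 1 item is not reported here. The 4 marker lists were used as values beside the results. Whether libraries came from separate animals is not stated, so p-values measure the spread between these libraries. Positions are from GENCODE vM21 on mm10. Python 3.11.15, pandas 2.3.3, NumPy 2.4.6 and SciPy 1.17.1 were used. Calls were run on simulated ratios set at or past the limit or well inside it. That checks the code and not how calls behave under the spread of real means.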

Additional observations from a re-analysis of the deposited data

How the results depend on the processing

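No paired analysis was possible because the deposited values are group means that carry no replicate number, and leaving out a replicate could not be run for the same reason. Centring on the median compound, scaling to the table total, averaging features of 1 name and adding the 5th percentile of the means left all 4 counts of members past 2-fold within 1.5 times. A limit of 1.5-fold raised the counts to 8 higher and 5 lower for castration and 14 higher for females. Keeping only compounds at or above the table median left 1 lower value for castration and 1 for females. Under every alternative, 0 called members changed direction. For genes, an adjusted p under 0.01 left 5 of 9 genes lower in females in 12-week kidney, and 2 of 4 higher and 1 of 2 lower in 12-week liver. A group mean of at least 1 left 1 of the latter. Requiring a 1.5-fold ratio of means as well left 13 of 23 genes lower after castration and 14 of 22 lower in females in 18-month kidney. Leaving out the Ugt1a genes, an alternative chosen after seeing the data, kept every count within 1.5 times. The spread between animals behind the compound means is not used here, so their precision is unknown.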
